A study of Homo sapiens with 12 samples.

Results

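The genes described here are 38 members of the Wnt pathway, taken by symbol from the deposited table of 59653 gene symbols and read in 12 RNA-seq libraries. The cells were human neurons made from iPSC of IMR-90, an established fibroblast line. A control siRNA, labelled as negative, was used for 6 of the libraries (siNC), and the siRNA used for the other 6 targets ZCCHC17, a zinc knuckle protein gene (siZCC). No further treatment, time or genotype is named in the labels. The labels call the cells neurons, while the sample titles carry the letters NPC, and nothing states whether the 6 replicates of a group were separate cultures, so the p-values measure only the spread between these libraries, which may be technical. All cultures derive from a single line. The members are 7 Wnt ligands, 2 genes of ligand maturation, 10 Frizzled receptors, 2 co-receptors, 2 transducers, 4 nuclear factors, 4 secreted inhibitors and 7 feedback targets. Of the 38, 37 passed the filter on low counts, and FZD10, the remaining Frizzled receptor, had 0 counts in 12 of 12 libraries, which allows at most 0.0394 CPM (counts scaled to library size with TMM factors) in the shallowest library.

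Wnt ligands are secreted lipid-modified proteins. PORCN attaches the lipid and WLS carries the ligand to the cell surface, where it binds a Frizzled receptor together with LRP5 or LRP6. In the canonical branch this binding stops a complex built on AXIN1 from destroying beta-catenin (CTNNB1), which then acts on genes with the DNA-binding factors TCF7, LEF1, TCF7L1 and TCF7L2, while other branches steer cell polarity and axon growth without beta-catenin. Many target genes, among them AXIN2, NKD1, ZNRF3 and NOTUM, encode inhibitors of the pathway and so form negative feedback. In the developing brain, Wnt signals pattern the dorsal forebrain, keep progenitors dividing and later act on axons and synapses.

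Library totals were 90755953 to 120023356 counts in siNC and 76115083 to 105389055 in siZCC, and ZCCHC17 itself stood at 53.99 to 61.0 CPM in siNC against 9.37 to 10.6 CPM in siZCC. In siNC, summed CPM was 3219 to 3639 over 12 neuron markers and 5873 to 6244 over 10 neural progenitor markers. It was 1947 to 2165 over 10 astrocyte markers and 659 to 729.9 over 10 markers of dividing cells. Transcripts from all these lists were present, which does not show that each cell type was. VIM, at a mean of 3550 CPM, made up most of the progenitor sum, and neuron markers ran from RBFOX3 at 1.27 to MAP2 at 1027 CPM. The libraries also differed in a way the labels do not explain: IL1B had 449 counts or more in 3 libraries of each group and 12 or fewer in the other 3, a split balanced between the groups. The siNC replicates 2 and 5 lay nearest to siZCC on the principal component that carried most variance (22.6%).

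Of the 37 members tested, 21 were called, meaning that edgeR's quasi-likelihood test gave an adjusted p below 0.05 over the 24671 genes tested, and 9 of them were higher and 12 lower in siZCC. That is 56.8% of the members, where 22.2% of all genes tested were called, 11.4% higher and 10.8% lower, and where 30.0% were called of those whose siNC mean reached 1 CPM. The members were chosen with earlier results of these data known, which can by itself raise their share. Of the other Wnt genes tested, 27.7% were called. The changes were small. Among the 21, the absolute log2 fold change ran from 0.079 to 0.575 with a median of 0.257, against a median of 0.216 over all genes called. The median signed log2 fold change was 0.02 over the 37 members and -0.00164 over all genes tested, so higher and lower members were about as frequent. The 6 values of a group did not overlap those of the other in 10 of the members, all among those called, against 9.74% of all genes tested and 13.7% of those whose siNC mean reached 1 CPM. Within roles, calls went in both directions for ligands, receptors, transducers and nuclear factors.

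**Figure D1:**
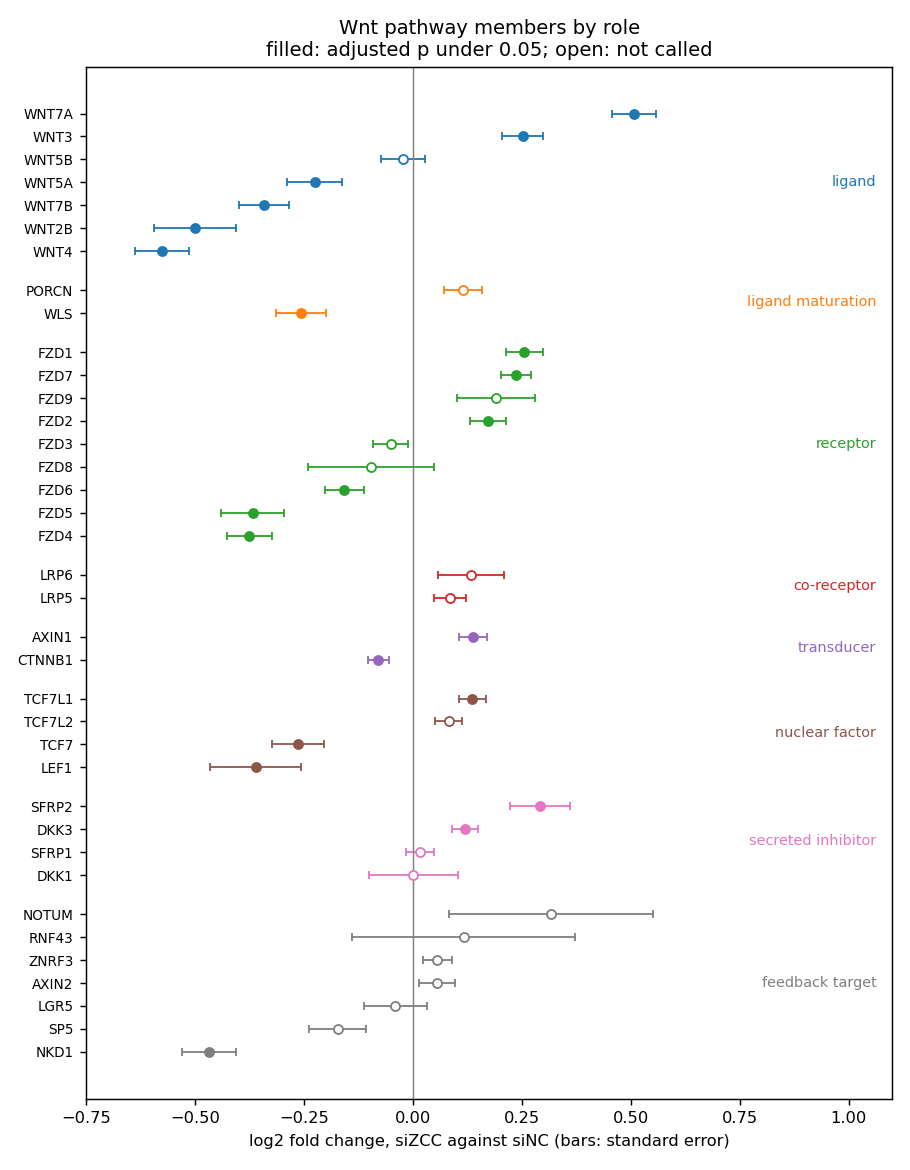
The plot of fold changes shows the log2 fold change of siZCC against siNC (x axis) for the 37 members tested, grouped and coloured by role, with bars for the standard error and filled points for an adjusted p under 0.05. WNT7A stands farthest to the right at 0.51 among the called members and WNT4 farthest to the left at -0.58, and in the receptor group filled points lie on both sides of 0.

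Among the ligands, WNT7A and WNT3 rose and WNT4, WNT2B, WNT7B and WNT5A fell, so 6 of 7 were called (85.7%). Of all genes tested 22.2% were called, and of the other Wnt ligands tested 1 of 9 (11.1%). The 7 were chosen with earlier results of these data known. WNT7A, known for its part in brain blood vessel growth and in synapse formation, was measured at 46.5 to 58.2 CPM (median 49.9) in siNC and at 69.7 to 77.0 CPM (median 74.0) in siZCC. All 6 siZCC libraries lay above every siNC library, and siNC replicates 2 and 5 were the highest of the controls. The log2 fold change was 0.51 (SE 0.0507, adjusted p 4.42e-06), or 1.42-fold. The gene lies on the minus strand at chr3:13816258-13880121 (GRCh38, GENCODE v29).

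WNT7B, the closest relative of WNT7A and a partner in the same vascular role, moved the opposite way. It stood at 65.6 to 83.7 CPM (median 75.5) in siNC and at 53.7 to 63.6 CPM (median 58.9) in siZCC, again without overlap (log2 fold change -0.34, SE 0.0575, adjusted p 0.000475). It is found at chr22:45920362-45977129, also on the minus strand. Divided by exonic length, WNT7B was the more abundant of the pair in each siNC library and WNT7A in each siZCC library. The ratio of WNT7A to WNT7B counts per exonic length was 0.648 to 0.979 in siNC (mean 0.783 ± 0.150, SD, n = 6) and 1.26 to 1.58 in siZCC (mean 1.40 ± 0.127, SD, n = 6), a ratio taken within each library and therefore free of the scaling between libraries. With the longest transcript as the length it was 0.570 to 0.861 and 1.11 to 1.39, so the order of the pair turned with either length. As both genes differed without overlap in opposite directions, the ratio had to separate the groups, which is no further evidence.

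**Figure D2:**
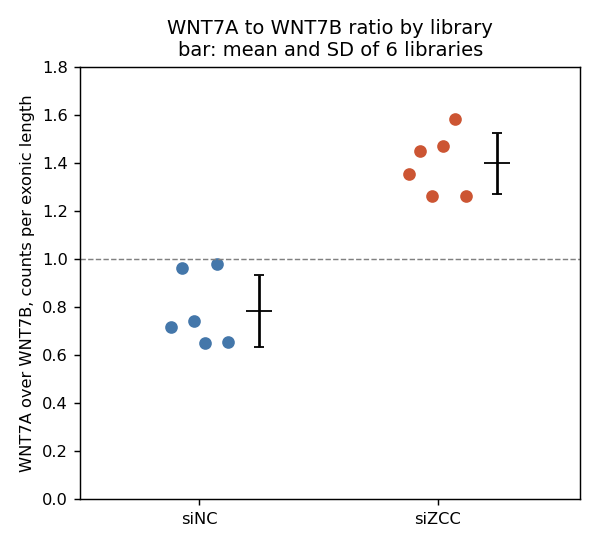
The plot of the WNT7A to WNT7B ratio gives the ratio of counts per exonic length (y axis) in each of the 6 siNC and 6 siZCC libraries, with the mean and SD beside the points and a dashed line at 1. The siNC points lie between 0.648 and 0.979, below the line, and the siZCC points between 1.26 and 1.58, above it.

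WNT4, best known from kidney and female reproductive tract development, had the largest fall of the members. Its values were 10.4 to 12.9 CPM (median 11.2) in siNC and 7.03 to 8.30 CPM (median 7.85) in siZCC, with no overlap (log2 fold change -0.58, SE 0.0614, adjusted p 7.78e-06, 1.49-fold). The gene lies at chr1:22117305-22143969 on the minus strand.

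WNT2B, a ligand of the dorsal midline of the brain, fell from 17.1 to 25.9 CPM (median 23.0) to 13.95 to 18.7 CPM (median 15.3), with a log2 fold change of -0.50 (SE 0.0941, adjusted p 0.00114). The groups overlapped: siNC replicate 5 lay below the highest siZCC library. WNT5A, the ligand most tied to signalling without beta-catenin, fell from 28.96 to 39.1 CPM (median 32.5) to 26.4 to 30.8 CPM (median 27.8), also with overlap (-0.23, SE 0.0635, adjusted p 0.0171). WNT3, a canonical ligand, rose from 7.60 to 8.91 CPM (median 8.31) to 9.43 to 10.4 CPM (median 9.81) without overlap (0.25, SE 0.0466, adjusted p 0.00102). WNT5B was not called, at 12.2 to 14.1 CPM in siNC and 12.2 to 14.7 CPM in siZCC (adjusted p 0.801). In the annotation, 21.2% of the exonic bases of WNT2B overlap ST7L on the opposite strand. ST7L had a log2 fold change of -0.06 (adjusted p 0.191), and the strand setting of the counting is not given in the sources used here.

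WLS, which all secreted Wnt proteins are thought to need, fell from 479 to 608 CPM (median 560.5) to 421 to 496 CPM (median 455), a log2 fold change of -0.26 (SE 0.0574, adjusted p 0.00406). Only siNC replicates 2 and 5 fell within the range of the siZCC libraries. PORCN had 20.4 to 24.7 CPM in siNC and 22.8 to 26.2 CPM in siZCC and was not called (0.11, adjusted p 0.0727).

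Per kilobase of exon, the ligands of the siNC libraries ran from WNT7B (14.7 ± 1.40 CPM per kilobase, SD, n = 6) and WNT7A (11.3 ± 1.08) through WNT5A (4.48 ± 0.506), WNT5B (3.08 ± 0.144) and WNT4 (2.53 ± 0.220) to WNT3 (1.91 ± 0.0970) and WNT2B (1.76 ± 0.290). The lowest pair did not differ by more than their spread. In siZCC, WNT7A led at 16.1 ± 0.598 and WNT4, at 1.70 ± 0.115, had dropped below WNT3, at 2.28 ± 0.0924. With the longest transcript as the length, WNT5B (5.76) and WNT5A (5.37) changed places in siNC. WNT8B, a forebrain ligand outside the member list, was higher than all 7, at 65.7 ± 3.55 CPM per kilobase in siNC and 53.3 ± 4.48 in siZCC (SD, n = 6 each).

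**Figure D3:**
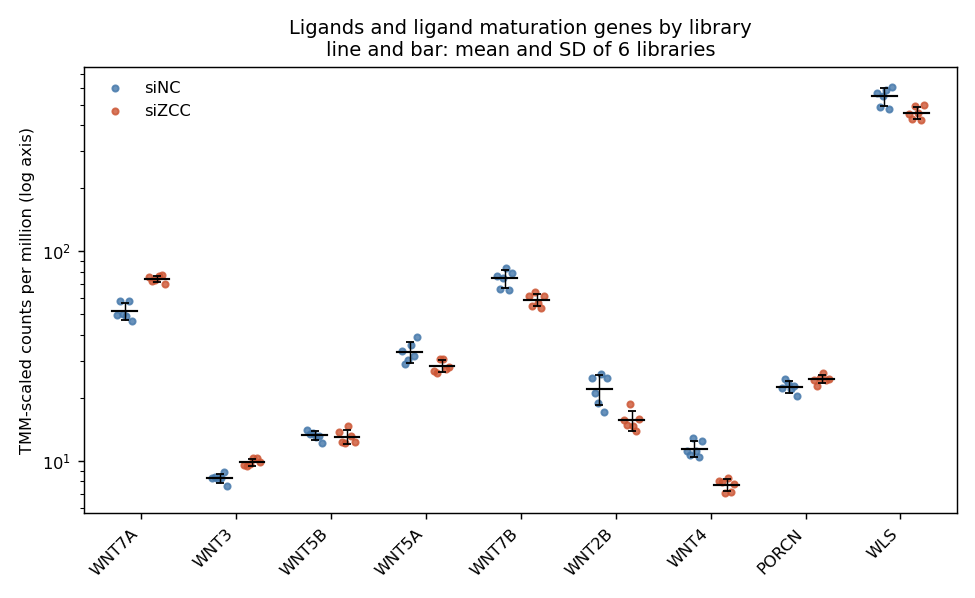
The plot of ligands and ligand maturation genes shows TMM-scaled CPM (log y axis) in every library, siNC in blue and siZCC in orange, with lines and bars for the mean and SD of 6 libraries. WNT7A and WNT3 sit higher in siZCC, while WNT4 and WNT7B sit lower, each without overlap between the groups.

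The Frizzled receptors also split. FZD1, FZD2 and FZD7, the closest relatives of each other in the family, rose together, and FZD4, FZD5 and FZD6 fell. FZD7, a main receptor of progenitor and stem cells, rose from 97.1 to 111.6 CPM (median 101) to 116 to 123 CPM (median 122) with no overlap (log2 fold change 0.24, SE 0.0335, adjusted p 0.000111). FZD1 rose from 17.3 to 20.4 CPM (median 18.3) to 21.0 to 22.8 CPM (median 22.1), also without overlap (0.26, SE 0.0415, adjusted p 0.000358). FZD2 rose by less, from 53.6 to 57.2 CPM (median 56.2) to 56.8 to 70.7 CPM (median 62.9), and 1 siZCC library, replicate 2, lay within the siNC range (0.17, SE 0.0409, adjusted p 0.00591).

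FZD4, the receptor of brain and retinal blood vessels that also binds norrin, stood at 19.5 to 24.0 CPM (median 22.8) in siNC and at 15.9 to 17.9 CPM (median 17.0) in siZCC. The groups did not overlap, and the log2 fold change was -0.38 (SE 0.0518, adjusted p 8.60e-05). In the annotation 18.9% of its exonic bases overlap PRSS23 on the opposite strand, and PRSS23 had a log2 fold change of -0.21 (adjusted p 0.0941). FZD5, a canonical receptor of early eye and forebrain, was at 8.80 to 12.6 CPM (median 10.6) in siNC and at 7.89 to 8.502 CPM (median 8.30) in siZCC, without overlap (-0.37, SE 0.0721, adjusted p 0.00162). FZD6, which acts in planar cell polarity, fell from 24.0 to 27.9 CPM (median 26.5) to 22.2 to 25.2 CPM (median 23.6) with overlap (-0.16, SE 0.0437, adjusted p 0.0159). FZD3, the axon guidance receptor most related to FZD6, was at 192 to 225 CPM in siNC and 188 to 211 CPM in siZCC and was not called (-0.05, adjusted p 0.394). FZD8 and FZD9, at 1.09 to 2.12 and 2.30 to 2.99 CPM in siNC, were not called either (adjusted p 0.692 and 0.144), and their standard errors of 0.144 and 0.0898 were the largest of the receptors.

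Per kilobase of exon, FZD7 (26.7 ± 1.42 CPM per kilobase) and FZD2 (26.5 ± 0.633) led the receptors in siNC and did not differ by more than their spread, followed by FZD3 (15.0 ± 0.886) and FZD6 (6.43 ± 0.405). FZD4 (2.99 ± 0.257) stood above FZD1 (2.65 ± 0.166) in siNC and below it in siZCC, at 2.30 ± 0.0941 against 3.16 ± 0.104 (SD, n = 6 each). Within each library, the ratio of FZD7 to FZD4 counts per exonic length was 7.95 to 10.7 in siNC and 12.4 to 14.7 in siZCC. Since FZD7 rose and FZD4 fell without overlap, this ratio had to separate the groups and is no further evidence. The co-receptors LRP5 and LRP6 were not called (log2 fold changes 0.08 and 0.13, adjusted p 0.113 and 0.227). LRP6 varied widely among the siNC libraries, from 97.3 to 141 CPM, and narrowly in siZCC, from 127 to 139 CPM.

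**Figure D4:**
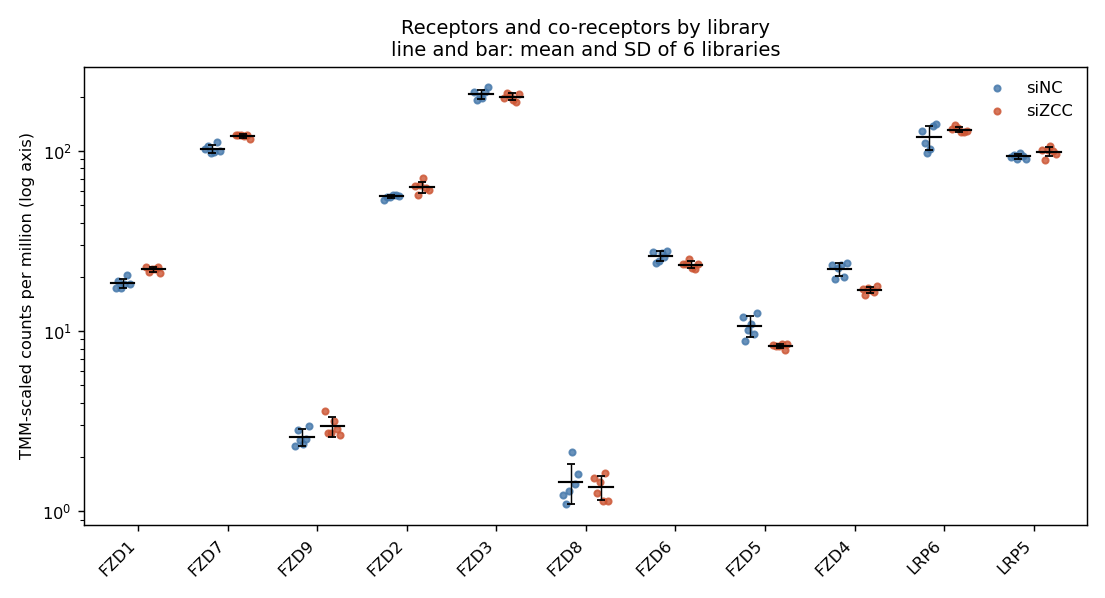
The plot of receptors and co-receptors shows TMM-scaled CPM (log y axis) in each library, siNC in blue and siZCC in orange, with lines and bars for the mean and SD of 6 libraries. FZD1 and FZD7 are higher and FZD4 and FZD5 lower in all siZCC libraries, while the LRP6 points of siNC spread from 97.3 to 141 CPM around those of siZCC.

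Between receptor and nucleus, AXIN1, the scaffold of the destruction complex, rose from 59.2 to 64.5 CPM (median 63.3) to 64.2 to 72.6 CPM (median 69.2). Only siZCC replicate 2 fell within the siNC range, and the log2 fold change was 0.14 (SE 0.0327, adjusted p 0.005996). CTNNB1, the transcript of beta-catenin, fell from 502 to 528 CPM (median 515) to 481 to 502 CPM (median 485), by 0.08 on the log2 scale (SE 0.0238, adjusted p 0.0246). This call was the least stable of the 21: it was lost in 7 of 22 alternatives, with an adjusted p of up to 0.0750 and log2 fold changes of -0.09 to -0.06. Among these were the fits without siNC replicate 1, 4 or 6 or without siZCC replicate 4. With a correction for GC content and length, the AXIN1 value was 0.09 and still called.

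Of the 4 nuclear factors, 1 rose and 2 fell (75% called, against 22.2% of all genes tested). TCF7L1, which acts mainly as a repressor, rose from 49.7 to 53.1 CPM (median 52.3) to 54.6 to 59.8 CPM (median 56.8) without overlap (log2 fold change 0.14, SE 0.0307, adjusted p 0.00433). TCF7, which acts mainly with beta-catenin as an activator and is itself a Wnt target, fell from 7.96 to 9.67 CPM (median 8.63) to 6.67 to 8.08 CPM (median 7.20), where siZCC replicate 3 lay within the siNC range (-0.26, SE 0.0605, adjusted p 0.00481). The ratio of TCF7L1 to TCF7 counts per exonic length was 12.4 to 14.9 in siNC and 16.2 to 20.3 in siZCC. A shift of this ratio follows from the opposite calls of the 2 genes and is no further evidence.

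LEF1, a further activator, was low throughout, at 2.28 to 3.06 CPM (median 2.44) in siNC and 1.44 to 2.34 CPM (median 2.06) in siZCC (log2 fold change -0.36, SE 0.105, adjusted p 0.0203). The groups overlapped slightly, and without siNC replicate 6, its highest library, the adjusted p was 0.0530. The fall was -0.61 within the 6 libraries high in IL1B (adjusted p 0.0309) and -0.13 within the 6 low in IL1B (adjusted p 0.478), a difference that was not tested. TCF7L2 was not called, at 25.1 to 27.5 CPM in siNC and 26.3 to 28.7 CPM in siZCC (0.08, adjusted p 0.0764).

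Of the 4 secreted inhibitors, SFRP2 and DKK3 rose and 2 were not called. That is 50% called, against 22.2% of all genes tested and 10% of the further Wnt inhibitors tested. SFRP2, which binds Wnt proteins outside the cell, rose from 13.6 to 17.4 CPM (median 14.4) to 16.5 to 20.8 CPM (median 18.6), with siNC replicates 2 and 5 inside the siZCC range (log2 fold change 0.29, SE 0.0682, adjusted p 0.00553). DKK3, a divergent relative of the Dickkopf antagonists, rose from 328 to 358 CPM (median 344) to 352 to 390.4 CPM (median 372) with overlap (0.12, SE 0.0301, adjusted p 0.00886). SFRP1 (30.9 to 33.7 CPM in siNC, 31.3 to 34.6 in siZCC) and DKK1, the LRP6 antagonist (1.83 to 2.35 and 1.61 to 2.49 CPM), were not called, with adjusted p of 0.763 and 0.999.

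Of the 7 feedback targets, 1 was called (14.3%, against 22.2% of all genes tested). It was NKD1, which binds dishevelled and restrains the pathway. It stood at 86.7 to 112.9 CPM (median 97.2) in siNC and at 66.2 to 76.8 CPM (median 71.6) in siZCC, with no overlap (log2 fold change -0.47, SE 0.0614, adjusted p 5.33e-05, 1.38-fold). The gene spans chr16:50548330-50649249 on the plus strand.

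AXIN2, the target most used as a readout of canonical signalling, stood at 14.6 to 16.6 CPM (median 15.6) in siNC and 15.1 to 17.1 CPM (median 16.1) in siZCC (log2 fold change 0.06, SE 0.0412, adjusted p 0.374). ZNRF3, a ubiquitin ligase that removes Frizzled receptors, was at 36.3 to 41.0 and 40.1 to 42.6 CPM (adjusted p 0.242), and LGR5, a receptor of R-spondins, at 13.2 to 16.8 and 12.4 to 16.5 CPM (adjusted p 0.738). SP5, a transcription factor gene induced by Wnt, was at 10.6 to 12.6 CPM in siNC and 8.82 to 11.7 CPM in siZCC, with an adjusted p of 0.0650 (log2 fold change -0.17, SE 0.0646). It passed the threshold in some alternatives, among them DESeq2's Wald test. RNF43 and NOTUM rested on 9 to 29 and 7 to 21 counts per library and were not called, with standard errors of 0.256 and 0.234 on the log2 scale. Exons of RNF43 and AXIN2 overlap those of another protein-coding gene on the same strand, over 57.6% and 25.2% of their exonic bases, so their counts are uncertain.

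**Figure D5:**
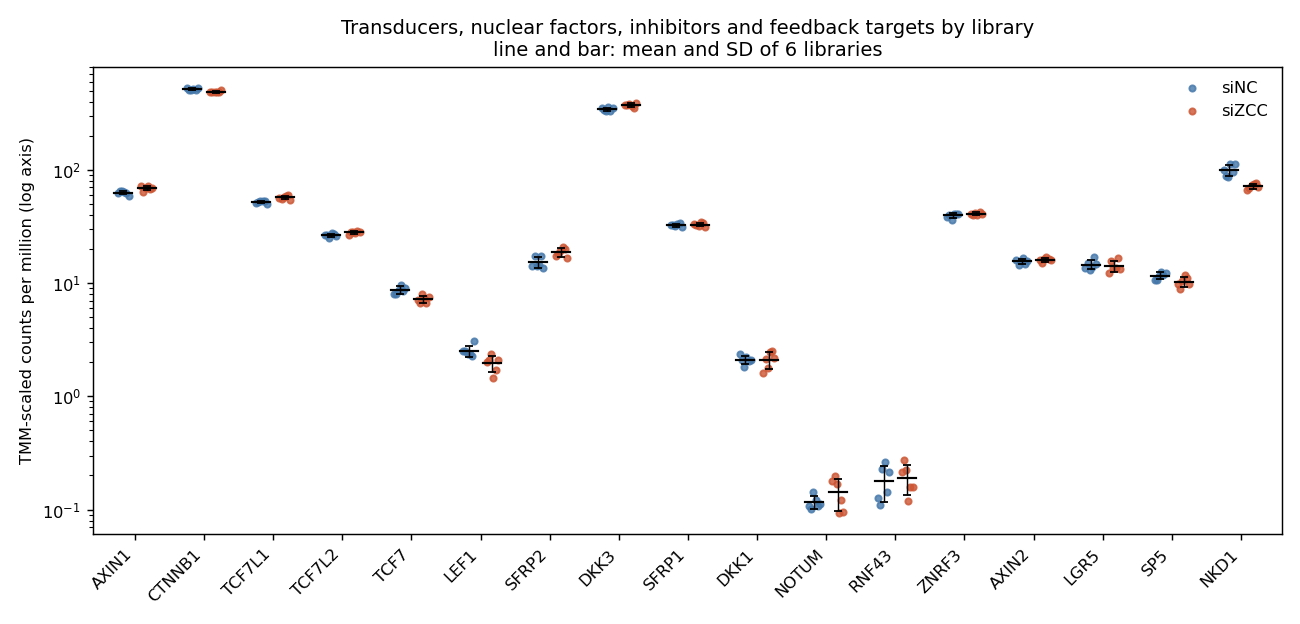
The plot of transducers, nuclear factors, inhibitors and feedback targets shows TMM-scaled CPM (log y axis) in each library, siNC in blue and siZCC in orange, with lines and bars for the mean and SD of 6 libraries. NKD1 is separated between the groups, at 86.7 to 112.9 against 66.2 to 76.8 CPM, while the points of AXIN2, ZNRF3 and LGR5 overlap.

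For part of the members, promoters show whether the DNA word that TCF and LEF factors recognise is present. RefSeq promoters (GRCh38.p14) were found for 24 of the 38 members, 33 start sites in all, and the 250 bases before each start were searched on both strands for the word CTTTGAT, the word CTTTGTT and the word CTTTGAA, none of which overlaps another in these promoters. At least 1 of these words stood in 4 of 33 member promoters (12.12%) and in 9.97% of all 35116 promoters of that length. Among the members without an entry, and so not searched, were the feedback targets AXIN2, NKD1, ZNRF3, LGR5 and NOTUM. The first 3 sequences below are member promoters with words, shown in capitals, from a feedback target, an inhibitor and a nuclear factor, and the fourth is that of WNT7A, the member that rose most, which holds none. Each is written 5′ to 3′ on the strand of the gene and ends at the base before the start site.
SP5, chr2:170715087-170715336, plus strand: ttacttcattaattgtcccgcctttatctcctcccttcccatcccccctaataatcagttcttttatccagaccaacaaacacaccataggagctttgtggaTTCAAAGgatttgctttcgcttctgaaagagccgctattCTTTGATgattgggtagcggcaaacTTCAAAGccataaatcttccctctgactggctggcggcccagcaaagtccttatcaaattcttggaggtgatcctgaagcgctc
DKK1, chr10:52314031-52314280, plus strand: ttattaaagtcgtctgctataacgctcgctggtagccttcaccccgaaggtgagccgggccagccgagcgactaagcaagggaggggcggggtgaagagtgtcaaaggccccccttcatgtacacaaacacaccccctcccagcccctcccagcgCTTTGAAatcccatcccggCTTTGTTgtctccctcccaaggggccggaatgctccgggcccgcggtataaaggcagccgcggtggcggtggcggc
TCF7, chr5:134123368-134123617, plus strand: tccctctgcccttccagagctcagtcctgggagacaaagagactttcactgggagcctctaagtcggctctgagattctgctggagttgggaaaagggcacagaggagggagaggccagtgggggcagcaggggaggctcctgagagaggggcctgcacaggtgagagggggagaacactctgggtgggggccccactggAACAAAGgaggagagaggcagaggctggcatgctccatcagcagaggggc
WNT7A, chr3:13880072-13880321, minus strand: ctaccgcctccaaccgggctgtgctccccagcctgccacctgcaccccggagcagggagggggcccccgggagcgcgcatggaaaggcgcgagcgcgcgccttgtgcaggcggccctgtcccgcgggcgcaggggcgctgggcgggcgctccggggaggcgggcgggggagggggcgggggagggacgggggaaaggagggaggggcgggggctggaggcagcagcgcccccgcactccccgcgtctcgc
SP5 has 3 words, beginning 148, 109 and 84 bases before the start, of which the first and the last are CTTTGAA read on the opposite strand. DKK1 has 2, beginning at 95 and 76 bases, and TCF7 has 1, CTTTGTT on the opposite strand at 50 bases. The other start site of TCF7 in the table holds no word. The fourth promoter with a word belongs to TCF7L2, with CTTTGTT beginning 133 bases before 1 of its 3 start sites. Of these 4 genes TCF7 fell, and SP5, DKK1 and TCF7L2 were not called. A word in a promoter is a match of letters and not a measured binding site.

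The other genes of the pathway were read from lists of 96 genes, of which 83 were tested. Of these, 10 were higher and 13 lower in siZCC, 27.7% of those tested, which lies between the 22.2% of all genes and the 30.0% of those whose siNC mean reached 1 CPM. Among 12 other ligands, WNT8B was the only one of 9 tested that was called, falling from 129.9 to 150 CPM (median 136) to 96.5 to 121 CPM (median 117) without overlap (log2 fold change -0.30, SE 0.0506, adjusted p 0.000464). Of the 4 genes tested for R-spondins and their receptors, which strengthen Wnt signals, RSPO2 and LGR4 fell by 0.46 and 0.21 on the log2 scale (adjusted p 0.000518 and 0.00342), each without overlap.

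Among 10 further inhibitors tested, APCDD1, a membrane protein that binds Wnt ligands and LRP5, was the only one called. It rose from 49.0 to 58.9 CPM (median 56.3) to 71.0 to 79.7 CPM (median 78.1), a log2 fold change of 0.47 (SE 0.0409, adjusted p 1.16e-06), and the groups did not overlap. In the cytoplasm, 3 of 19 rose and 1 fell, or 21.1%, where 22.2% of all genes tested were called. DVL1 and DVL3, the dishevelled proteins that relay the receptor signal, rose by 0.18 and 0.14. CSNK1A1, a kinase that marks beta-catenin for destruction, fell by 0.15 (adjusted p 0.00274 to 0.00277 for the 3). Of 15 nuclear partners of beta-catenin, 1 rose, CTBP1 (0.09, adjusted p 0.0217), and 4 fell, with TLE1 (-0.12, adjusted p 0.00612) and CREBBP (-0.14, adjusted p 0.0124) first by p. These 5 are 33.3%, near the 30.0% of all genes whose siNC mean reached 1 CPM. The CTBP1 call was lost with the replicate block (adjusted p 0.0535), with no filter on low counts (0.0741), without siNC replicate 6 (0.0557) and without siZCC replicate 1 (0.0589).

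For planar cell polarity and alternative receptors, 2 of 16 rose and 3 fell. That is 31.2%, near the 30.0% called of all genes whose siNC mean reached 1 CPM. CELSR2 rose by 0.26 and VANGL2 by 0.11 on the log2 scale (adjusted p 0.000387 and 0.00528), while VANGL1, the close relative of VANGL2, fell by 0.42 and DAAM2 by 0.31 (adjusted p 0.000698 and 0.00225). Of 10 other target genes tested, 3 rose and 2 fell (50%). TNFRSF19 rose by 0.35 and JAG1, a Notch ligand, by 0.25 (adjusted p 7.64e-06 and 0.000353), and MYC fell by 0.18 (adjusted p 0.00222). CCND1, the other textbook target beside MYC, was not called (-0.05, adjusted p 0.464).

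Markers of some cell types moved beside the members. For comparison, 22.2% of all genes tested were called, and 30.0% of those whose siNC mean reached 1 CPM. All 10 markers of dividing cells were lower in siZCC, with a summed level of 495 to 584 CPM against 659 to 729.9 in siNC. Neuron markers had 1 of 12 higher and 5 lower (summed 2936 to 3320 against 3219 to 3639 CPM), neural progenitor markers 4 of 10 higher and 1 lower (5928 to 6448 against 5873 to 6244), and astrocyte markers 4 of 10 higher and 1 lower (2029 to 2363 against 1947 to 2165). For the roof plate and cortical hem, sources of Wnt in the embryonic brain, 5 of 8 markers were tested, 1 was higher and 2 lower, RSPO2 among them, and the summed level was 102 to 128 CPM in siZCC against 109 to 134 in siNC. LMX1A, WNT3A and MSX2, not tested, had 12, 10 and 16 counts in all libraries together. LMX1B had 96596, MSX1 29018, BMP6 8806, RSPO2 7601 and GDF7 1025, so LMX1B made up most of the summed level. Of 6 choroid plexus markers 4 were tested and 3 were lower (22.7 to 25.9 against 27.2 to 31.5 CPM). Counts in all were 12 for TTR and 75 for CLIC6, both not tested, 521 for KCNJ13, 4147 for FOLR1, 7404 for AQP1 and 21055 for OTX2. Among 6 endothelial markers, 2 of 5 tested were lower (8.55 to 10.6 against 12.4 to 17.5 CPM). These were TEK and CLDN5, with 9349 and 4393 counts in all, which made up most of the summed level. KDR had 1091 counts, PECAM1 326, VWF 121 and CDH5, not tested, 99. In the remaining lists, the markers called were 1 of 6 tested for the oligodendrocyte lineage (lower) and 3 of 8 for mesenchymal cells (1 higher, 2 lower). They were 1 of 3 for neural crest (lower), 3 of 4 for pluripotent cells (2 higher, 1 lower) and 0 of 3 for microglia. In bulk RNA, fewer cells of a type and less RNA per cell cannot be told apart, and the part of these shifts in the members' changes was not tested.

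The members were also read with the libraries that stood apart left out or separated. For 11 of the 21 called members (52.4%), siNC replicates 2 and 5 were the 2 control libraries nearest to the siZCC mean, as they were for 27.6% of all genes called. Among these 11 were WNT7A, WNT7B, WNT4, WLS, FZD4 and FZD7. With both libraries left out, all 21 calls held and PORCN was added. Leaving out the controls nearest to siZCC tends to widen the difference by construction, so this fit cannot test the calls. Within the 3 against 3 libraries high in IL1B, 16 of the 21 passed, and within those low in IL1B 8 did, with the same direction in both for all 21. The 21 were called over these same libraries, so the shared direction is no independent evidence. WNT7A had a log2 fold change of 0.56 in the former and 0.45 in the latter, WNT4 of -0.62 and -0.53, FZD4 of -0.38 and -0.37, and NKD1 of -0.41 and -0.53. Against a minimum change of 1.2-fold, 3 members passed, WNT7A, WNT4 and NKD1.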

How the data were processed

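RNA-seq libraries of siNC and siZCC cells (6 each) were analysed. The authors deposited whole-number counts per gene symbol, 1 column per library. Per the labels' protocols, total RNA was taken up in Qiazol and a NEBNext Ultra II Directional kit served for the libraries. The submitters' processing notes name bcl2fastq 2.17, STAR 2.7.6a, featureCounts 2.0.1 and GRCh38. Which annotation was counted, and with which strand setting, is not given in the sources used here.

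Counts were analysed as deposited with edgeR 4.0.16 in R 4.3.3: filterByExpr (about 0.0997 CPM in enough libraries), TMM factors, glmQLFit and glmQLFTest on all 12 libraries without covariates, Benjamini-Hochberg over the 24671 genes kept, threshold 0.05. The standard error is the log2 fold change over the square root of F. CPM values are TMM-scaled. On counts simulated for siZCC against siNC, over 24359 to 24395 genes, 99.0% of those set to a log2 change of 1 were recovered, 94.0% at 0.5 and 59.5% at 0.25. Each run changed 200 genes with a mean above 1 CPM, and 5.53% to 6.6% of the calls fell on unchanged genes. In the data 5481 genes were called, so the cutoff after adjustment differs and these shares need not hold there. The members and lists were chosen with earlier results of these data known. Every member is accounted for, called members by their lowest, median and highest library, and from each other list the 2 genes with the smallest p-values called in each direction are named. CCND1 was added after its value was seen. A gene that this rule names is not reported here. Positions, exon overlaps and lengths (union of exons) come from GENCODE v29, promoters from RefSeq.

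Alternatives were DESeq2 size factors, upper quartile factors, no filter or a mean count of 50, DESeq2 1.42.0, limma 3.58.1 voom, the replicate number as a block, each library left out, and a 1.2-fold minimum. Chosen after seeing the data were a GC content and length correction, the IL1B split (100 counts) as a block or as separate fits, and leaving out siNC replicates 2 and 5.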

Additional observations from a re-analysis of the deposited data

Results flagged for a closer look

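For 114 groups of 6 libraries (the library total and each named gene, in each group), the gap between the farthest library and its neighbour was compared with the range of the group. In 7 it was above 0.625 of the range, where chance gives about 1 in 20, or 5.7. In siNC replicate 4 the library total was low, at 90755953 counts, where the group's others had 109973707 to 120023356. In siZCC replicate 6, FZD7 was low, at 116 CPM against 121 to 123, and CTNNB1 high, at 502 CPM against 481 to 488. In siNC replicate 6, LEF1 was high, at 3.06 CPM against 2.28 to 2.53, and APCDD1 low, at 49.0 CPM against 55.0 to 58.9. TLE1 was at 97.4 CPM in siNC replicate 1 against 101 to 103 in the others, and JAG1 at 106 CPM in siNC replicate 3 against 123 to 129.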

How the results depend on the processing

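The 21 called members had the same direction in all 25 alternatives, which use all or part of the libraries that gave the calls and are not independent of them. Their number ran from 20 to 24 under the other scalings, filters, tests, blocks and the GC content and length correction, and from 19 (without siNC replicate 6) to 23 (without siNC or siZCC replicate 2) when single libraries were left out. The calls lost in these fits were those of CTNNB1 and, without siNC replicate 6, LEF1. With single libraries left out, the number called was 20 to 28 in the other Wnt lists (23 with all libraries) and 4484 to 5626 over all genes (5481). The replicate numbers did not pair the libraries: deviations of libraries with the same number correlated between -0.08 and 0.02, and 0 of 6 siNC libraries matched their own number best. With the replicate block 21 members were called, CTNNB1 being lost and SP5 gained, with 23 genes of the other lists and 4902 over the table. Against the 1.2-fold minimum, a stricter test by construction, 349 genes, 3 members and 1 gene of the other lists passed. With 6 libraries in each fit, those high in IL1B gave 2043 genes and 10 of the other lists, and those low in IL1B 1602 genes, 8 members and 11 of the other lists.

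Changes of sign touched only members that were not called. DKK1 (0.000321) was -0.000763 with DESeq2 size factors, -0.00787 with upper quartile factors, -0.0057 with no filter, -0.000825 in the Wald test, -0.0117 with voom, -0.00779 with the replicate block, -0.121 in the libraries low in IL1B, -0.0128 without siNC replicates 2 and 5, and -0.0525 to 0.0626 with single libraries left out. In the libraries high in IL1B, WNT5B was 0.0795, FZD8 0.107 and RNF43 -0.165, and in those low in IL1B SFRP1 was -0.0572. Without siNC replicates 2 and 5, RNF43 was -0.0892 and LGR5 0.0304. Leaving out single libraries took FZD8 from -0.166 to 0.033, LGR5 from -0.0894 to 0.00517 and RNF43 from -0.0263 to 0.238. The cause was not tested. Levels per length moved by more than their SD for 22 members with the longest transcript as the length. Depth limits RNF43 and NOTUM most, with 29 counts or fewer per library.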

Other observations

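The members differed in how much they varied between libraries of the same group. Among members above 1 CPM, FZD8 had the widest spread in siNC (coefficient of variation 25.3%), followed by WNT2B (16.5%), LRP6 (15.6%) and FZD5 (13.3%). CTNNB1 (2.12%), FZD2 (2.39%) and TCF7L1 (2.72%) varied least. Spread often differed between the groups: FZD5 varied by 13.3% in siNC and 2.68% in siZCC, LRP6 by 15.6% and 3.58%, and FZD2 by 2.39% and 7.30%, a difference that was not tested.

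Paralogues with opposite calls were present outside the member list too. VANGL2 rose and VANGL1 fell, as WNT7A rose and WNT7B fell, and NKD2, the relative of NKD1, rose by 0.24 on the log2 scale (SE 0.0465, adjusted p 0.00141) while NKD1 fell. These 3 pairs were picked after their values were seen.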
